A study of Mus musculus with 3 samples.

Results

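Egr1, Egr2, Egr3, Egr4, Nr4a1, Nr4a2, Nr4a3, Arc and Npas4 are 9 genes whose transcription follows neuronal activity, and their mRNA levels were measured in tdTomato-positive cells sorted from mouse hippocampus. The 9 genes were taken by gene symbol from the 52636 genes of the count table, by a rule that names the genes and sets no limit on their values, although earlier results of these data were known when they were chosen. FACS RNA-Seq was performed on 3 biological replicates, each a pool of cells from 2 to 4 male C57BL/6J mice at postnatal days 28 to 32. All mice were Camk2a-Cre +/- and Ai14 +/-, so that Cre driven from the Camk2a promoter in a subset of forebrain excitatory neurons switched on the tdTomato reporter. Whole hippocampi were dissociated with papain and live tdTomato-positive cells were collected, and poly(A) RNA was sequenced. There was 1 group of samples and no stimulated, unstimulated or unsorted control, so the values are levels and their spread, and no change with activity was measured. The levels are those after dissociation and sorting, and the effect of these steps on the 9 genes was not tested.

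These genes are immediate early genes, which are transcribed within minutes of synaptic input or growth factor signalling without the need for newly made protein. In neurons, calcium entry activates kinases that act on SRF with its ternary complex partners, on CREB and on MEF2, factors already bound near the start sites of such genes. In the hippocampus, Egr1 and Arc are widely used as marks of recently active pyramidal and granule neurons. EGR proteins are zinc finger transcription factors, NR4A proteins are nuclear receptors that act without a known ligand, and Npas4 is a bHLH-PAS transcription factor. Arc differs from the rest in that it encodes a synaptic protein, related to retroviral Gag, which promotes the removal of AMPA receptors from synapses.

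Total assigned counts were 15833075 to 48159841 per library. Markers of CA1 pyramidal neurons were all detected, with at least 1 CPM (counts scaled by library size) in each replicate for 8 of 8 and a list median of 75.9 ± 12.3 TPM (counts scaled by gene length and library size; SD, n = 3). The libraries also held RNA of other hippocampal cells, since 4 of 4 markers of dentate granule neurons (median 35.5 ± 8.64 TPM), 3 of 3 of CA3 neurons (13.2 ± 3.00 TPM) and 8 of 8 of oligodendrocytes (19.3 ± 5.83 TPM) passed the same level. The highest mean was 196 TPM among granule markers (C1ql2) and 141 TPM among CA1 markers (Fibcd1). Astrocyte markers had a median of 5.16 ± 2.09 TPM (6 of 7 at that level), with Slc1a2 at 43.8 TPM. Microglia markers had 2.70 ± 0.515 TPM (6 of 6) and endothelial markers 0.955 ± 0.960 TPM (3 of 5). Interneuron markers had 0.503 ± 0.356 TPM (2 of 5), with Gad1 at 16.5 TPM. For Slc32a1, which loads GABA into vesicles, 19, 0 and 0 counts were found, and a count of 0 allows up to 3. In such bulk libraries, few cells with much of an mRNA cannot be told apart from many cells with little of it.

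Promoters of these genes were searched for binding motifs of activity-regulated factors, and 4 of them are shown to place the motifs beside the levels. They are those of Egr2 and Egr4, the EGR genes with the least and the next least mRNA here, of Nr4a1, the NR4A gene with the most, and of Npas4. Each window runs 5′ to 3′ on the strand of the gene, from 250 bases before to 50 bases after the start site, and is taken from RefSeq on GRCm38.p6. Windows were found for 6 of the 9 genes, namely Egr2, Egr4, Nr4a1, Nr4a2, Nr4a3 and Npas4. Capitals mark TGACG or its reverse complement CGTCA, the core of the CREB site (CRE core), the CArG box bound by SRF, and the EGR site GCGNGGGCG or its reverse complement.
Egr2 (chr10:67537619-67537918, + strand): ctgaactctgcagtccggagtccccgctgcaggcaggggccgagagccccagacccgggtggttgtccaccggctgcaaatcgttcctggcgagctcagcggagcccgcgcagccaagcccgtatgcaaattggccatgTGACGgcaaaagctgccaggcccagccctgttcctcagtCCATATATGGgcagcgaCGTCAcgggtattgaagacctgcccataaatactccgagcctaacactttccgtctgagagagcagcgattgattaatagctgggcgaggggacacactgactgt
Egr4 (chr6:85513540-85513839, - strand): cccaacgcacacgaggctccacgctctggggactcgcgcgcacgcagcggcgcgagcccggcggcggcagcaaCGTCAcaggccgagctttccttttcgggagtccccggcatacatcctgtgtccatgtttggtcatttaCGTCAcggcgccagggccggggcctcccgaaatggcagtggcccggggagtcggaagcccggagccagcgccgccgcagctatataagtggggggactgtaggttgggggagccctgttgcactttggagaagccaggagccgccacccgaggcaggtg
Nr4a1 (chr15:101266596-101266895, + strand): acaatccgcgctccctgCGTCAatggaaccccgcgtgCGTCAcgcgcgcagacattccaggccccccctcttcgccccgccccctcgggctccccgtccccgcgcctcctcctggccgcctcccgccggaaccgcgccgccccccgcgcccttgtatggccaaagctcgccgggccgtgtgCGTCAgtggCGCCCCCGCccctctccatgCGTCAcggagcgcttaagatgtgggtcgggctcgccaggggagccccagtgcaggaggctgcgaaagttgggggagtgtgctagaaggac
Npas4 (chr19:4989922-4990221, - strand): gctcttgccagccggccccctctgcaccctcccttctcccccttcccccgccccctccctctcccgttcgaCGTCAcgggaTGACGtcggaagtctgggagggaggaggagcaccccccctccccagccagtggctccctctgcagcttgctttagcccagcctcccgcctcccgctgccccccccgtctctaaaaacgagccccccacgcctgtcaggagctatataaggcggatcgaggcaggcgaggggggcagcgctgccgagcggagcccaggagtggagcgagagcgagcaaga

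The CRE core was present in windows of 6 of 6 genes, and in 8 of 10 windows when all 5 windows of Egr2, for different and partly overlapping start sites, were counted. Of all 32851 promoter windows of this length, 20.8% held it on either strand. By gene, 23.0% of the 27025 genes with such windows had it in at least 1 window. Nr4a1, Nr4a2 and Nr4a3 had 4 CRE cores each, and 3 or more were found in 1.03% of all windows. The Npas4 window held 2 cores on opposite strands, CGTCA from base -179 and TGACG from base -169. The full palindrome TGACGTCA, in which cores on both strands overlap, was found in 0 of 10 windows of these genes and in 1.79% of all windows. The CArG box was searched only as CC, 6 bases of A or T, and GG. Of the 6 genes with windows, Egr2 had such a match, in 4 of its 5 windows, and the other 5 genes had none. In the window shown it reads CCATATATGG and lies between the CRE cores (bases -72 to -63). The Egr2 windows from 67537619, 67537620 and 67537680 hold this same box and the same 2 CRE cores. A match was found in 1.63% of all windows and for 1.81% of genes. The printed windows of Nr4a1 and Egr4 hold CCTTGTATGG and CCATGTTTGG, similar words that the search did not cover. Which of these genes have a site for SRF is thus not shown. An EGR site was matched in Nr4a1 at bases -60 to -52 and in Nr4a2 at bases -74 to -66, against 5.55% of all windows and 6.27% of genes. The NR4A response element AAAGGTCA and the MEF2 site were matched in 0 of 10 windows, against 1.51% and 0.557% of all windows. The TATA box was searched only as TATAAA, which matched in 1 of 10 windows, against 13.6% of all windows. This match was in Nr4a2, on the strand opposite to the gene. The printed windows of Egr4 and Npas4 each hold TATATAAG on the strand of the gene, a similar word that the search did not cover. The search therefore does not show which of these genes have a TATA box. Each match is a match of letters, and binding was not measured. Sequence outside these windows was not searched, so sites elsewhere are not covered.

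**Figure D1:**
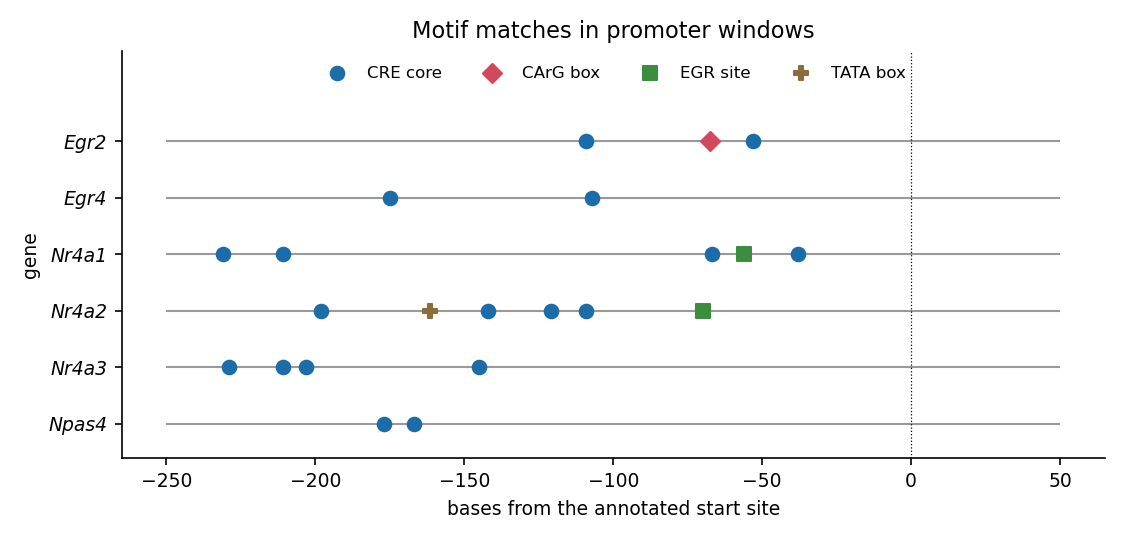
Positions of motif matches on either strand in the promoter windows of 6 genes, 1 gene per line, with bases from the annotated start site on the x axis, and for Egr2 the window printed in the text. CRE cores (blue circles) lie in all 6 windows and a CArG box (red diamond) in that of Egr2. EGR sites (green squares) lie in those of Nr4a1 and Nr4a2. The TATA box, searched only as TATAAA (brown plus), was matched in that of Nr4a2, on the strand opposite to the gene.

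All 9 genes were present in the sorted cells, and 8 of them were above the median protein-coding gene. Each of the 9 reached 1 CPM in each replicate, a level reached by 30.3% of all genes and by 57% of nuclear protein-coding genes. The median over the 9 genes was 34.2 ± 9.23 TPM, against 11.8 ± 1.88 TPM over the 12471 nuclear protein-coding genes with at least 1 CPM in each replicate (SD, n = 3). As TPM is corrected for gene length, levels of different genes can be set side by side. Gm23935, annotated as a miRNA gene, took 32.7%, 48.3% and 40.5% of all TPM in replicates 1, 2 and 3. This lowers the TPM of every gene, by a different amount in each replicate, but leaves their order within a replicate as it is. The SD of TPM between replicates includes this difference. Npas4 had 13.3 ± 2.37 TPM over all genes and 42.3 ± 1.38 TPM over nuclear protein-coding genes only. Egr1 had 81.7 ± 16.0 and 260.3 ± 37.0 TPM. With TPM summed over nuclear protein-coding genes only, the median of the 9 genes was 107.8 TPM. The counts behind the values are high for 8 of the genes, with exact Poisson 95% intervals within 10.8% of the count in each replicate, and lower for Egr2. These intervals cover counting error only, as reads made by PCR are not independent molecules.

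**Figure D2:**
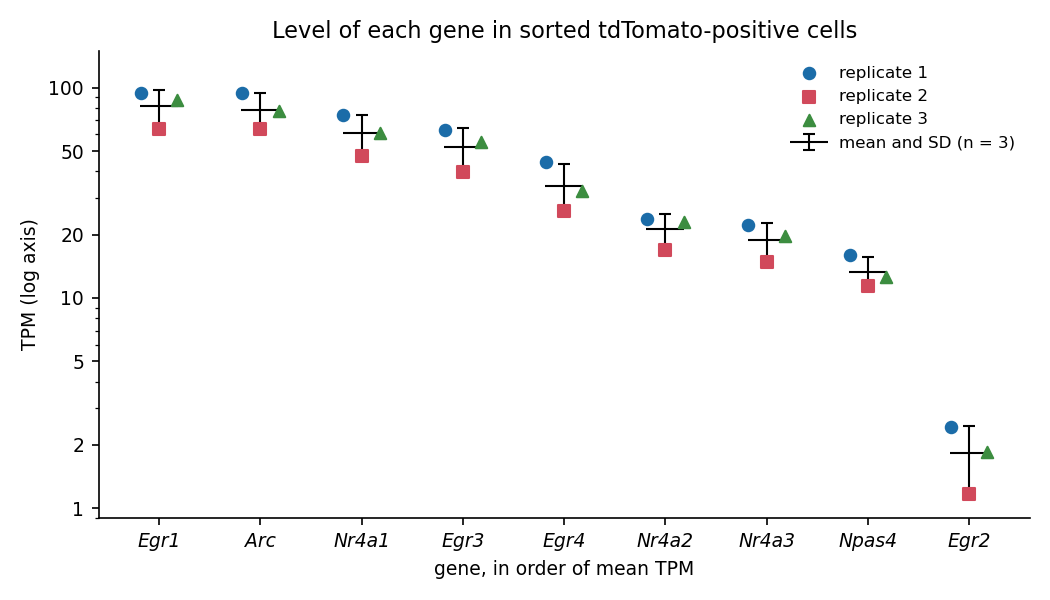
TPM on a log axis for the 9 genes in order of mean TPM, with 1 point per replicate (blue circle, red square and green triangle for replicates 1, 2 and 3) and the mean with SD (n = 3). Levels run from 81.7 TPM for Egr1 to 1.82 TPM for Egr2, and the red squares of replicate 2 are the lowest point of each gene. Replicate 2 is also the library in which Gm23935 took the largest share of TPM.

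**Figure D3:**
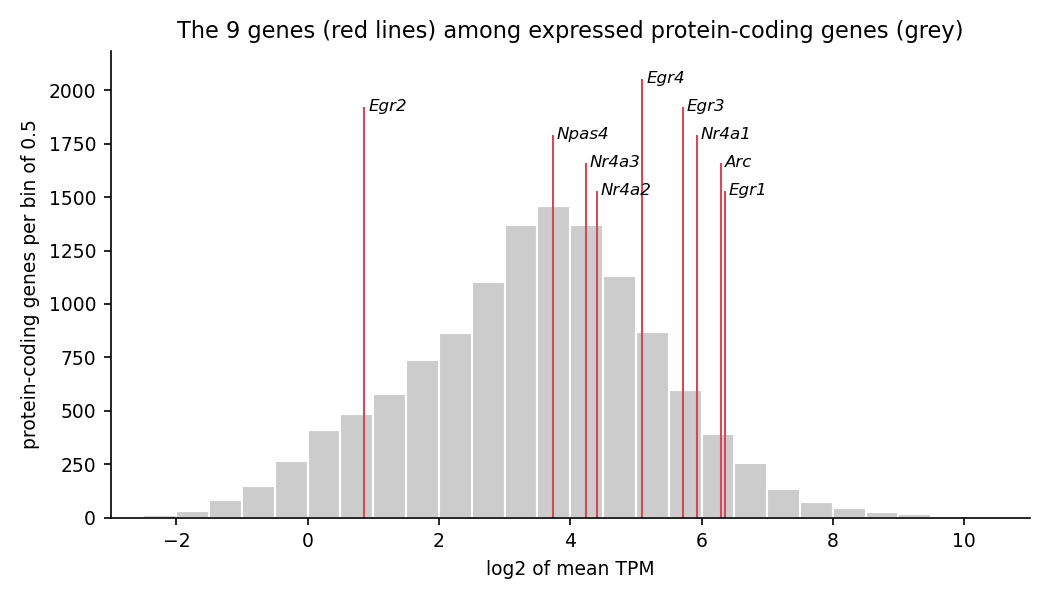
Number of nuclear protein-coding genes with at least 1 CPM in each replicate (grey bars, y axis) by log2 of mean TPM (x axis), with a red line at each of the 9 genes. Egr1 and Arc lie in the upper tail, at percentiles 94.7 and 94.4, and Egr2 in the lower tail, at percentile 10.5.

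Among the EGR genes, Egr1, Egr3 and Egr4 were abundant and Egr2 was low. Egr1, which is needed for the late phase of synaptic plasticity and for lasting memory, had 94.1, 63.6 and 87.4 TPM in replicates 1, 2 and 3. Its mean of 81.7 ± 16.0 TPM (SD, n = 3) was exceeded by 660 of the 12471 protein-coding genes. It spans 34859823 to 34864984 on chromosome 18 of GRCm38, with 4484 bases of exon. Egr3, which is needed for muscle spindle development, had 62.8, 39.7 and 55.0 TPM. Its mean of 52.5 ± 11.8 TPM stood at percentile 89.7 of protein-coding genes, so Egr3 too was well within the upper part of the distribution. It lies on chromosome 14 from 70077203 to 70082614.

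Egr4, which is needed for male germ cell development, had 44.2, 26.1 and 32.4 TPM and a mean of 34.2 ± 9.23 TPM, at percentile 82.1. Its locus is the most compact of the 4, at 2469 bp on chromosome 6 (85511121 to 85513589) with 2 merged exons. Egr2, known for its part in hindbrain patterning and in myelination by Schwann cells, had 185, 63 and 56 counts, or 2.44, 1.17 and 1.86 TPM. The exact Poisson 95% interval of its count was 2.10 to 2.82 TPM in replicate 1 and 1.40 to 2.41 TPM in replicate 3, and these overlap. Its mean was 1.82 ± 0.635 TPM, with 11158 protein-coding genes above it. Egr1 exceeded Egr2 by 38.6, 54.4 and 47.1 times in the 3 replicates. The printed window with a CArG box and 2 CRE cores is that of Egr2, the least abundant of the 9 mRNAs. No window was found for Egr1, Egr3 or Arc, and a link between motifs and levels was not tested.

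Together the 4 EGR genes had 204, 131 and 177 TPM in replicates 1, 2 and 3. Egr1 made up 48.1% ± 1.71 of this sum, Egr3 30.8% ± 0.373, Egr4 20.01% ± 1.69 and Egr2 1.048% ± 0.151 (SD, n = 3). The share of Egr3 was between 30.4% and 31.1% in each replicate, while that of Egr4 was 21.7%, 19.96% and 18.3% and that of Egr2 1.198%, 0.896% and 1.051% in replicates 1, 2 and 3. Egr1 exceeded Egr3 by 1.56 times (geometric mean), with 1.497, 1.603 and 1.589 times in replicates 1, 2 and 3. Against Egr4 the factor for Egr1 was 2.13, 2.44 and 2.70 in the same replicates.

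The NR4A genes were led by Nr4a1, with Nr4a2 and Nr4a3 lower and close to each other. Nr4a1, the family member most often used as a mark of T cell receptor and neuronal signalling, had 74.0, 47.2 and 61.2 TPM, with a mean of 60.8 ± 13.4 TPM at percentile 91.7. It is counted over 7 merged exons on chromosome 15 from 101266846 to 101274792. Nr4a2, needed for the development of midbrain dopamine neurons and expressed in several forebrain areas, had 23.8, 16.9 and 22.9 TPM. Its mean of 21.2 ± 3.78 TPM (SD, n = 3), at percentile 69.7, still lay above the median protein-coding gene. Nr4a3 had 22.2, 14.8 and 19.7 TPM and a mean of 18.9 ± 3.79 TPM, at percentile 66.3. Its locus on chromosome 4 (48045153 to 48086447) is the longest of the 9, at 41295 bp, with 5987 bases of exon.

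Within the NR4A sum of 120.0, 78.8 and 104 TPM, Nr4a1 took 60.1% ± 1.37, Nr4a2 21.1% ± 1.16 and Nr4a3 18.7% ± 0.213 (SD, n = 3). Nr4a1 exceeded Nr4a2 by 3.11, 2.80 and 2.67 times and Nr4a3 by 3.33, 3.19 and 3.11 times in replicates 1, 2 and 3. Nr4a2 exceeded Nr4a3 by only 1.07, 1.14 and 1.17 times, in the same direction each time. All 3 receptors are thought to bind the same response element as monomers, and Nr4a1 and Nr4a2 can also pair with retinoid X receptors. Of those partners, Rxrb had 32.1 ± 4.28 TPM, Rxra 4.29 ± 1.17 TPM and Rxrg 1.39 ± 0.597 TPM.

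Arc was close to Egr1 in level. It had 94.7, 63.6 and 77.3 TPM in replicates 1, 2 and 3, with a mean of 78.5 ± 15.6 TPM (SD, n = 3) at percentile 94.4. Its mRNA is carried into dendrites and translated near active synapses. The gene lies on chromosome 15 from 74669083 to 74672570 on the - strand, with 3 merged exons in 3488 bp. The ratio of Egr1 to Arc was 0.994, 1.00 and 1.13, so their order was not the same in each replicate.

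Npas4, which is induced by calcium entry in particular and regulates inhibitory synapses onto excitatory neurons, was lower, with 16.0, 11.4 and 12.6 TPM. Its mean of 13.3 ± 2.37 TPM stood at percentile 54.2, close to the middle of the protein-coding genes. Npas4 lies on chromosome 19 from 4984355 to 4989971, with 8 merged exons. Arc exceeded it by 5.94, 5.60 and 6.13 times, the ratio with an SD of 0.07 on the log2 scale. Npas4 acts as a dimer with ARNT proteins, and Arnt2 had 33.0 ± 5.21 TPM and Arnt 17.8 ± 3.18 TPM, both above Npas4 itself.

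In order of mean TPM the genes ran Egr1, Arc, Nr4a1, Egr3, Egr4, Nr4a2, Nr4a3, Npas4 and Egr2. Of the 8 pairs of neighbours in this order, 7 differed in the same direction in all 3 replicates, the exception being Egr1 and Arc. The widest step was between Npas4 and Egr2, at 7.56 times (log2 ratio 2.92 ± 0.31, SD, n = 3). The narrowest of the 7 were Nr4a2 over Nr4a3, with a log2 ratio of 0.17 ± 0.06, and Nr4a1 over Egr3, with 0.21 ± 0.05. Across replicates, TPM also shifts with the share of Gm23935. Compared in that way rather than within replicates, only the values of Egr4 and Nr4a2 and those of Npas4 and Egr2 had ranges that did not overlap. With 3 replicates, a two-sided sign-flip permutation test of such a ratio cannot go below p = 0.25, so no neighbours were tested.

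Between replicates the 9 genes had a median SD of log2 normalized counts of 0.157, and replicate 2 was the lowest for each of them. Without replicate 2 this median was 0.0582. These values are counts divided by median-of-ratios size factors, which are independent of the TPM total. Egr1 had 5296, 4695 and 5874 normalized counts in replicates 1, 2 and 3. Egr3 had 3476, 2878 and 3634. Nr4a1 had 2297, 1920 and 2269. For these 3 genes, replicate 2 was below both others and outside their counting intervals. Nr4a2 had 1213, 1127 and 1396 normalized counts, with replicate 1 nearer to replicate 2 than to replicate 3. Nr4a3 had 1671, 1456 and 1766. Arc varied less, with 3634, 3200 and 3542. Npas4 varied least of the 9, with 656, 613 and 620. For Npas4 the counting intervals of the replicates overlapped, so that its spread was within counting error. Egr4 had 1193, 921 and 1043 normalized counts. Egr2 had 104, 65.4 and 94.6, and its replicates 2 and 3 overlapped in their counting intervals.

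The highest normalized count was at least 1.5 times the lowest for 1 of the 9 genes, Egr2 at 1.59 times, against 17.4% of the 15955 genes with at least 1 CPM in each replicate and 10.6% of the 12471 nuclear protein-coding genes among them. This count was 0 of 9 without replicate 1 and 0 of 9 without replicate 2. The median SD was 0.157 over the 9 genes, against 0.126 over those protein-coding genes and 0.144 over all 15955 genes. Replicate 2 was the lowest for 9 of 9, while it was the lowest for 31.2% of the 15955 genes. Replicate 1 was the highest for 5 of the 9 and replicate 3 for 4, against 36.6% and 33.9% of all these genes. Replicate 2 was the highest for 0 of the 9 and replicate 1 the lowest for 0, against 29.5% and 27.2% of all these genes. By exact Poisson intervals of the counts, replicate 2 lay below both others for 5 genes, namely Egr1, Egr3, Nr4a1, Nr4a3 and Arc. The genes respond to common signals and are not independent of each other, and the replicates are pools of mice, so these counts describe 3 libraries.

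**Figure D4:**
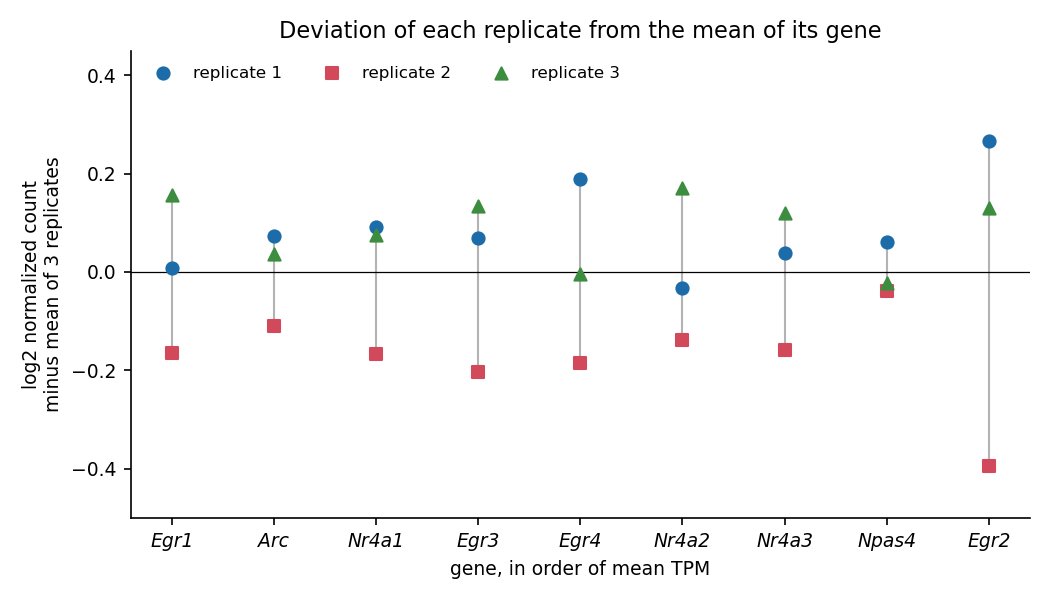
Log2 normalized count of each replicate minus the mean of the 3 replicates (y axis, pseudocount 1) for the 9 genes in order of mean TPM. Replicate 2 (red squares) is below 0 and is the lowest point for each gene, at -0.17 for Egr1, -0.11 for Arc and -0.40 for Egr2.

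Markers of other cells moved between the same libraries. Of all genes with at least 1 CPM in each replicate, 31.2% were lowest in replicate 2. Replicate 2 was also the lowest for 7 of 7 astrocyte markers, whose summed normalized counts were 11089, 7339 and 13302 in replicates 1, 2 and 3. It was the lowest for 4 of 5 interneuron markers, with sums of 3075, 2450 and 3080, and for 6 of 8 oligodendrocyte markers, although the summed oligodendrocyte counts were highest there, at 27631 against 22248 and 21052 in replicates 1 and 3. It was the lowest for 2 of 4 dentate granule markers, with sums of 19110, 16424 and 16733. For CA1 markers it was the lowest for 1 of 8, with sums of 36474, 38098 and 32752. Endothelial markers were highest in replicate 3, with sums of 211, 323 and 1082, and microglia markers had sums of 572, 649 and 772. The part of these cells in the values of the 9 genes was not tested.

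Other activity genes did not all share the levels of these 9. Of 16 other genes of the rapid response, 13 reached 1 CPM in each replicate, and the median was 34.2 ± 9.23 TPM for the 9 genes, against 7.38 ± 2.07 TPM for these 16. Fos, the AP-1 subunit most used to mark active neurons, had 8.46, 4.16 and 7.61 TPM, with a mean of 6.74 ± 2.28 TPM, and Fosb had 1.46 ± 0.390 TPM. The AP-1 genes Jun and Junb were at 59.4 ± 13.8 and 49.2 ± 17.2 TPM, beside 52.5 ± 11.8 TPM for Egr3. Ier5 had 31.7 ± 9.49 TPM and the clock gene Per1, which is also induced by CREB, had 36.0 ± 6.94 TPM. The phosphatase gene Dusp1 and the kinase gene Sik1, which both act as brakes on the signals that induce them, had 4.50 ± 0.777 and 3.40 ± 0.779 TPM. Atf3, Maff and Klf4 fell short of 1 CPM in at least 1 replicate, and Atf3 had 32, 7 and 6 counts. Replicate 2 was the lowest for 8 of these 16 genes, Fos included, against 31.2% of genes with at least 1 CPM in each replicate. For 5 of the 16, the highest normalized count was at least 1.5 times the lowest, against 17.4% of those genes. Fos was among the 5, at 1.67 times, and so were the low Atf3, Maff and Klf4.

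Genes of the later response, which encode secreted, synaptic and signalling proteins, were all detected. Each of the 11 reached 1 CPM in each replicate, with a list median of 26.8 ± 3.24 TPM and a range of means from 4.46 TPM for Pcsk1 to 132 TPM for Scg2. Bdnf, a neurotrophin and known target of Npas4, had 29.4, 23.4 and 26.9 TPM, with a mean of 26.5 ± 3.01 TPM, beside 13.3 ± 2.37 TPM for Npas4. Homer1, whose short activity-induced form is not separated from the long form in a count per gene, had 26.4 ± 3.91 TPM. The kinase gene Plk2 had 131 ± 17.2 TPM and Nrn1 had 99.96 ± 20.5 TPM. Replicate 2 was the lowest for 4 of the 11 and the highest for 4, against 31.2% and 29.5% of all genes with at least 1 CPM in each replicate.

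**Figure D5:**
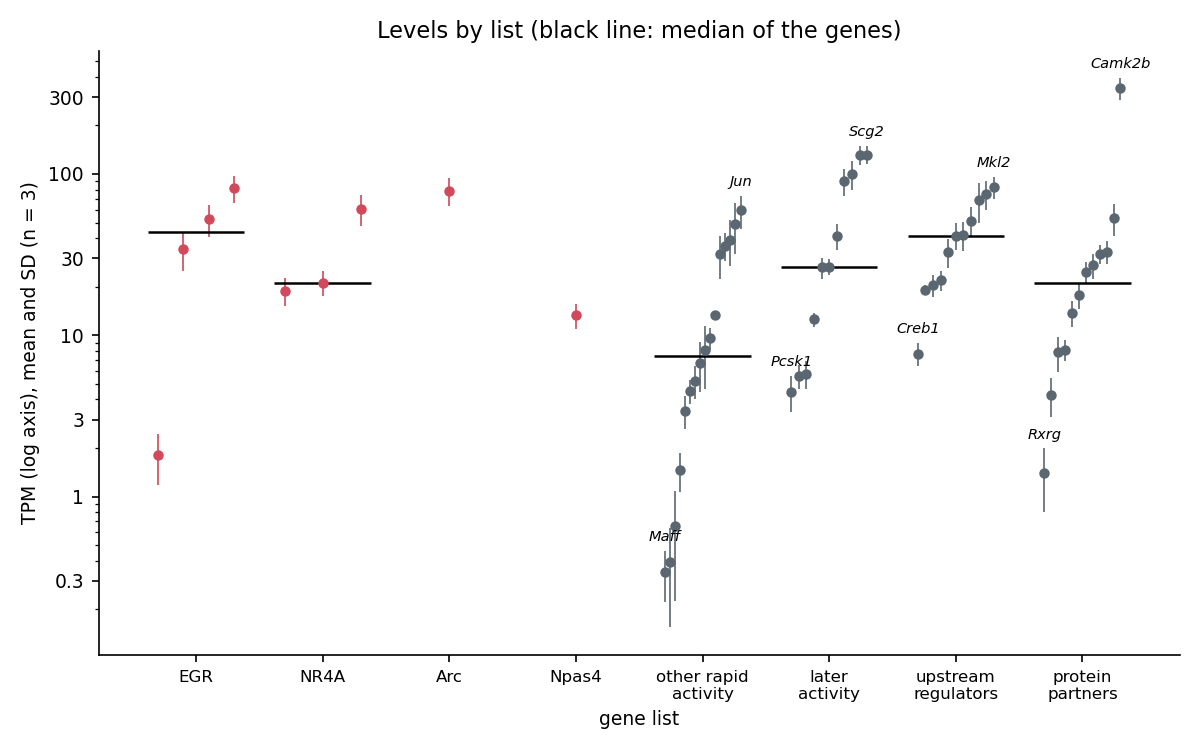
Mean TPM with SD (n = 3) on a log axis for each gene, grouped by list along the x axis, with the EGR, NR4A, Arc and Npas4 genes in red, the other lists in grey and the list median as a black line. Other rapid activity genes span 0.342 TPM for Maff to 59.4 TPM for Jun, and upstream regulators have a median of 41.3 TPM.

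The factors that act upstream of these genes were all expressed, as 11 of 11 passed 1 CPM in all replicates, and their median level was 41.3 ± 7.95 TPM. Srf had 32.8 ± 6.76 TPM and Elk1, the gene of an SRF partner, 41.5 ± 7.84 TPM. Creb1 was the lowest of the list, at 7.68 ± 1.27 TPM, below the median protein-coding gene, while its coactivator gene Crtc1 had 51.5 ± 11.01 TPM. None of the 11 differed by 1.5 times or more between replicates, against 10.6% of nuclear protein-coding genes with at least 1 CPM in each.

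Of the genes for protein partners, 12 of 12 reached 1 CPM in all replicates, and their median level was 21.2 ± 3.48 TPM. Nab2 and Nab1 encode corepressors that bind EGR proteins, and had 24.7 ± 3.80 and 8.10 ± 1.19 TPM. Nab2 varied least of this pair, with a highest normalized count 1.03 times its lowest. Sh3gl1, Sh3gl3 and Dnm2 encode endophilins and dynamin through which Arc acts on endocytosis, and had 53.1 ± 11.9, 7.86 ± 1.91 and 27.1 ± 4.89 TPM. Camk2b, whose protein binds Arc at inactive synapses, had 340.2 ± 52.2 TPM, the highest of the list. Rnf216, a ubiquitin ligase of Arc, had 13.7 ± 2.52 TPM.

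Of 6 heat shock genes, a list of stress response genes, 5 reached 1 CPM in all replicates. Hspa1a and Hspa1b, which are strongly induced by stress, had 2.72 ± 0.631 and 4.78 ± 1.27 TPM. The constitutive Hspa8 had 281 ± 58.4 TPM. Replicate 2 was the lowest for 1 of the 6, Hspa1a, against 31.2% of all genes with at least 1 CPM in each replicate.

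The profile of the 9 genes over the 3 replicates, as the mean of their centred log2 normalized counts, was 0.08, -0.17 and 0.09. Among the 12462 other nuclear protein-coding genes with at least 1 CPM in each replicate, the 5 closest by root mean square distance were Asprv1, Akap11, Atg16l1, Bmpr1a and Slc30a4. Their distances were 0.000939 to 0.00330 on the log2 scale. In all, 609 genes lay within 0.05 of this profile, so 3 replicates place many genes equally close. Of the 9 genes themselves, Nr4a1 was the closest to the mean profile, at 0.01, and Egr2 the farthest, at 0.17.

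The counts of the 9 genes can be assigned to them with little ambiguity. None of their exon bases overlapped an exon of another gene in the count table on either strand. Of the 31-base words in their transcripts, 0% to 0.523% also occurred in a transcript of another gene. Egr3 shared 14 such words with Egr2 and 8 with Egr4, while Egr1, Nr4a1, Arc and Npas4 shared 0 words with any other gene.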

How the data were processed

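Total assigned counts, exon lengths and gene coordinates were taken from the table the authors deposited, which holds raw counts per gene with no normalization. The submitters' notes name STAR and featureCounts with mm10 and GRCm38, without versions. The strand setting, the treatment of multimapping reads and the counting of reads or fragments are not given in the sources used here. All 3 columns of samples were used and 0 were left out. Gene IDs were named, without their version, by GENCODE vM21 (52489 of 52636 matched). TPM and CPM were computed from the counts. For normalized counts, each library was divided by its median-of-ratios size factor (1.78 for replicate 1, 0.963 for replicate 2, 0.592 for replicate 3). The pseudocount of log2 values was 1. TMM factors for the alternative were from edgeR 4.0.16 in R 4.3.3. All other steps were run in Python 3.11.15 with pandas 2.3.3, scipy 1.17.1 and numpy 2.4.6, and figures were drawn with matplotlib 3.10.9. Size factors and spread were checked on simulated counts. No test between groups was possible with 1 group. The 9 genes and the lists were chosen with earlier results of these data known. All 9 genes were named, list genes were named beside the count of their list, and the 5 genes of most similar profile were those with the smallest root mean square distance. Alternatives were the genes summed in TPM, the CPM level, CPM in place of TPM, the normalization, the fold, the pseudocount, the low filter and leaving out each replicate. 1 gene of the list of upstream regulators is not reported here and was left out of its counts and median.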

Additional observations from a re-analysis of the deposited data

How the results depend on the processing

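The median of the 9 genes was 107.8 TPM when TPM was summed over nuclear protein-coding genes only, against 34.2 TPM over all genes. The genes left out of that sum, Gm23935 with 32.7% to 48.3% of all TPM among them, held much of the total. The TPM of each of the 9 genes moved in the same way, from 5.71 TPM for Egr2 to 260.3 TPM for Egr1. The 1 gene whose replicates differed by at least 1.5 times became 0 at a fold of 2, and 0 to 1 with a replicate left out. The median SD of log2 normalized counts ranged from 0.0582 without replicate 2 to 0.197 without replicate 1, and from 0.156 to 0.158 under the other normalizations and the pseudocount of 0.1. With 2 replicates, the median TPM ranged from 29.2 to 38.3, and 7 to 8 of 8 neighbours in the order of TPM kept 1 direction. With CPM, which does not divide by length, Egr3 came before Nr4a1, Nr4a3 before Nr4a2 and Egr4 after both. All 9 genes passed a CPM of 0.1 and 8 passed a CPM of 10. Replicate 2 remained the lowest for 9 of 9 genes with TMM and with CPM. Without the low filter, 56.7% of genes with a count differed by at least 1.5 times and their median SD was 0.37. No paired analysis was possible because there is only 1 group. Depth limits Egr2 most, with 56 to 185 counts.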
